A study of Mus musculus with 27 samples.

Results

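Expression of 10 regulators of mitochondrial biogenesis was followed in the mouse tibialis anterior muscle after volumetric muscle loss (VML), an injury that removes more muscle than the tissue can rebuild. The members were fixed by gene symbol as Ppargc1a, Ppargc1b, Perm1, Esrra, Esrrb, Esrrg, Ppara, Ppard, Nrf1 and Tfam, and each symbol matched 1 of the 54532 genes of the deposited expression table. Whole-muscle polyadenylated RNA was sequenced in 27 samples, of which 5 were uninjured controls and 5, 6, 6 and 5 came from muscles 3, 7, 14 and 21 days after VML. All groups were C57BL/6 male mice given as 8 weeks old, with no transgene or drug, and in the injured groups 40% of the tibialis anterior was excised. The series' design text gives the excision as unilateral and the study's methods give it as bilateral, and the labels do not say which samples came from the same animal, so p-values measure the spread between samples only.

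Oxidative muscle fibres build mitochondria through a small set of nuclear regulators. The coactivators PGC-1alpha (Ppargc1a) and PGC-1beta (Ppargc1b) bind no DNA themselves and act through transcription factors, among them the estrogen-related receptors (Esrra, Esrrb, Esrrg), the peroxisome proliferator-activated receptors (Ppara, Ppard) and nuclear respiratory factor 1 (Nrf1). Perm1 is a muscle-enriched protein induced by PGC-1 and the estrogen-related receptors (ERRs) that acts within the same circuit, and Tfam is the nuclear-encoded factor that packages mitochondrial DNA and starts its transcription. PGC-1alpha is known in muscle for its induction by endurance exercise.

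Promoter sequences of 4 members are shown because known motifs of the same circuit could be looked for in them. Sequences were those of RefSeq on GRCm38.p6, and each is written 5′ to 3′ on the strand of the gene, with the motif in capitals. Positions of motifs are counted as bases before the RefSeq start, and bases that lie inside the gene as the deposited table places it were left off. The Tfam motif lies inside that gene, so only 30 bases around it are given.
Perm1, chr4:156215677-156215867, plus strand: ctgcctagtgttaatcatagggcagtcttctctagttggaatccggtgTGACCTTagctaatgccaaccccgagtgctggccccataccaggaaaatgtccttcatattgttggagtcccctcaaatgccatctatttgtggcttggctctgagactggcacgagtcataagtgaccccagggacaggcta
Ppargc1a, chr5:51567727-51567975, minus strand: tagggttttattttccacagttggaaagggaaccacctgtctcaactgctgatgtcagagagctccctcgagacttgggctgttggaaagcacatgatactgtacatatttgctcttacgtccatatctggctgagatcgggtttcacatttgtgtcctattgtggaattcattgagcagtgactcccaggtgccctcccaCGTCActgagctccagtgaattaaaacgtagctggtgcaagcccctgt
Esrra, chr19:6921814-6922058, minus strand: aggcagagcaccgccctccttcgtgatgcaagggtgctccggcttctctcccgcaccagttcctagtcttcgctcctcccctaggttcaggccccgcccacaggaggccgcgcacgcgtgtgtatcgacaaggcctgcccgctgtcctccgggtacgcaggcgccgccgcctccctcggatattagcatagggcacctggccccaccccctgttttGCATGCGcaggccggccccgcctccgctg
Tfam, chr10:71238074-71238103, minus strand: tcctgccgcggaCCGGAAGtccgggcttcc

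The capitals in Perm1 are the ERR core AAGGTCA in reverse complement, beginning 202 bases before the start. In Ppargc1a they are the core of the cAMP response element, TGACG, in reverse complement at 49 bases. In Esrra they are the core of the Nrf1 site, GCATGCG, at 34 bases, and in Tfam the ETS site CCGGAAG, which the factor GABP binds, at 47 bases. Both strands were searched in the 250 bases before 32851 RefSeq starts, which include 14 starts of 9 members. Of all these windows, 4.08% held AAGGTCA, 17.8% TGACG, 3.02% GCATGCG and 6.91% CCGGAAG. Of the 14 member windows, 1 held AAGGTCA, 3 TGACG, 3 GCATGCG and 1 CCGGAAG. The longer ERR element TNAAGGTCA, which contains the ERR core, was in 1.14% of all windows and in 0 of the 14 member windows, and the PPAR element, a direct repeat of AGGTCA with 1 base between the copies, was in 0.0335% and in 0 of 14. The GC box GGGCGG was in 32.7% of all windows and in 8 of 14. These matches describe letters only, and binding was not measured.

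Sequencing gave 14376395 to 24436763 reads counted to genes per sample. Expression was deposited as FPKM (fragments per kilobase of gene length, relative to mapped reads). The read total it was divided by had been scaled between samples, to 0.747 to 1.48 times each sample's own reads with group means of 0.782 in uninjured muscle and 1.25 at day 3. The tissue label was checked against 12 muscle fibre markers, whose summed FPKM was 80973 to 95594 in uninjured muscle. The day 3 samples had 20883 to 56775, those of day 7 had 26135 to 94580, those of day 14 had 42050 to 93894 and those of day 21 had 67742 to 101941. Acta1, skeletal muscle actin, had the highest mean FPKM of them over the 27 samples. Of the 12, 7, 4, 1 and 0 were lower than in uninjured muscle at days 3, 7, 14 and 21. Under a common sum of FPKM, 4 were lower and 1 higher on day 3 and 0 lower and 1 higher on day 7, where the median went from -0.78 to -0.06, and quantile normalization turned the day 7 median to 0.04 with 0 lower. All 8 macrophage and leukocyte markers were higher at day 3, when their summed FPKM was 321 to 2162 against 16.3 to 25.04 in uninjured muscle, led by Lyz2, and 7, 2 and 0 were higher at the later days. Of 6 fibroblast markers, led by Col1a1, 5, 5, 5 and 2 were higher at days 3, 7, 14 and 21, and of 6 myogenic progenitor markers, led by Myog, 5, 4, 4 and 3 were higher. Of 5 endothelial markers, led by Cdh5, 2, 1, 1 and 1 were lower, with a day 3 median of -0.25. This median turned to 0.40 when FPKM was rescaled to a common sum, against 0.50 over all tested genes. Of 3 tested adipocyte markers, led by Adipoq, 3 were higher at day 7 and 0 on the other days. Beside these marker counts, 2899, 2107, 1649 and 247 of all 14630 tested genes were lower at days 3, 7, 14 and 21. Those higher were 3417, 2189, 1320 and 255. In bulk tissue, fewer muscle fibres and less RNA of a gene per fibre cannot be told apart, and the part of these markers in the results was not tested. By distance over all tested genes, 9 of the 22 injured samples lay nearest the centre of another group, and replicate 3 of day 7 lay nearest uninjured muscle. Replicate 5 of day 3 lay nearest day 7, and replicate 5 of day 7 lay nearest day 3.

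In uninjured muscle, Perm1 and Esrra were the most abundant members per length, with 91.3 ± 19.3 and 71.4 ± 22.04 FPKM (SD, n = 5). Tfam followed with 10.2 ± 0.213 FPKM, then Ppargc1a with 4.75 ± 0.927, Ppard with 4.27 ± 0.655 and Esrrg with 2.78 ± 0.437. The lowest were Ppargc1b with 1.55 ± 0.592, Nrf1 with 1.26 ± 0.203, Esrrb with 1.23 ± 0.607 and Ppara with 0.273 ± 0.0816. The 5 values of Perm1 and Esrra overlapped, as did those of Ppargc1a and Ppard, of Ppard and Esrrg, and those of Ppargc1b, Nrf1 and Esrrb. The other neighbours in this order did not overlap.

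**Figure D1:**
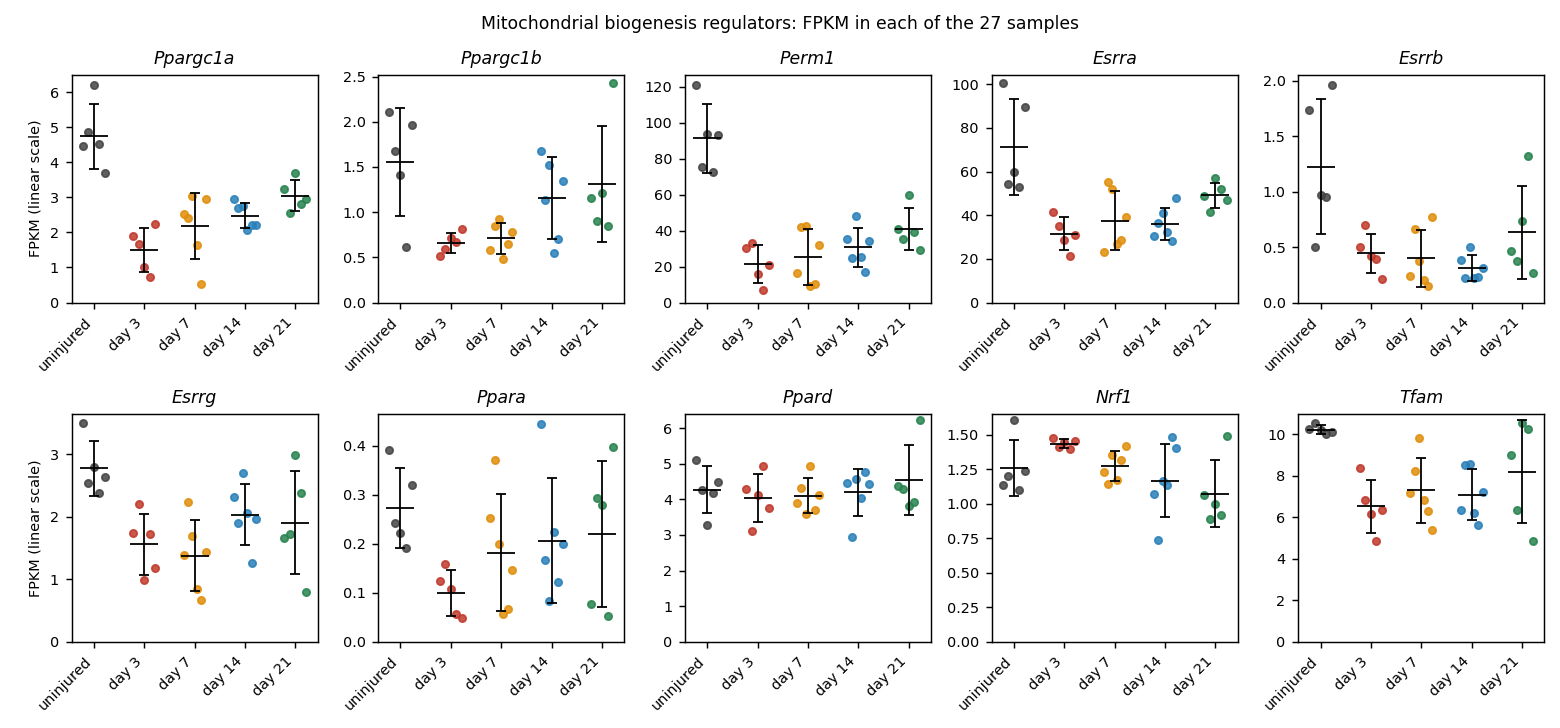
FPKM (linear scale) of the 10 regulators in each of the 27 samples, by group. Points are samples, the horizontal mark is the group mean and the bars are 1 SD. Perm1 was below every uninjured sample in all 22 injured samples, whereas the Ppard and Nrf1 groups overlapped on every day.

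Most of the regulators were lower early after VML and none was called higher in deposited FPKM. Of the 9 members that passed the filter on low values, 7 were lower at day 3, with a median log2 fold change of -0.59 over the 9 against 0.01 over all 14630 tested genes. At day 3, 43.2% of all tested genes were called at an adjusted p of 0.05, with 19.8% lower. The same counts were 7 members lower at day 7 (29.4% of all genes called, 14.4% lower) and 5 at day 14 (20.3% called, 11.3% lower), with median log2 fold changes of -0.64 and -0.49. At day 21, 0 members were called, when 3.43% of all genes were called, and limma's unadjusted p was under 0.05 for 5 members and for 19.8% of all genes. The count at day 3 was 4 in place of 7, as 2 lower and 2 higher, when FPKM was rescaled to a common sum, which is described further on. That scaling called 322 of 15116 tested genes lower and 7087 higher. All fold changes are on the log2(FPKM + 1) scale, which understates the change of low genes, and adjusted p-values are from limma with Benjamini-Hochberg adjustment over all tested genes.

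Perm1 had the largest change among the members on each day on the log2(FPKM + 1) scale. Its 5 uninjured values were 121, 75.5, 93.8, 72.8 and 93.2 FPKM. At day 3 they were 30.1, 33.4, 15.9, 6.98 and 21.0 FPKM. At day 7 the lowest, median and highest of the 6 values were 8.98, 24.2 and 42.6 FPKM. All day 3 and day 7 samples were thus below all uninjured samples. At day 14 they ranged from 16.8 through a median of 29.7 to 48.2 FPKM. At day 21 the values were 41.1, 35.1, 59.8, 39.3 and 29.2 FPKM, still without overlap with uninjured muscle. Mean levels were 23.5%, 27.8%, 33.7% and 44.8% of the uninjured mean at days 3, 7, 14 and 21. On day 14 Esrrb had the lower mean level, at 25.4% of its own uninjured mean. Perm1 fell at day 3 (log2 fold change -2.18 ± 0.39, SE, adjusted p = 1.02e-04), day 7 (-2.03 ± 0.38, adjusted p = 5.15e-04) and day 14 (-1.59 ± 0.38, adjusted p = 0.00495), and these calls held under every alternative that was run. The day 21 difference of -1.15 ± 0.39 did not pass (adjusted p = 0.0979), although all 5 samples were below all uninjured ones. In a fit of day 21 and uninjured muscle alone, the adjusted p was 0.00571.

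The muscle fibre markers of some samples are given beside Perm1, as their summed FPKM and as the mean of their log2(FPKM + 1), which ran from 9.52 to 9.68 in uninjured muscle. In replicates 3 and 6 of day 7 both measures lay inside the uninjured range (sums of 94580 and 85940 FPKM, means of 9.59 and 9.67), and Perm1 was 42.6 and 32.2 FPKM. Replicates 1, 4 and 5 of day 7 lay below that range, with sums of 31692.5, 38582 and 26135 FPKM. Perm1 was 16.3, 8.98 and 10.4 FPKM in them, and 41.8 FPKM in replicate 2, whose sum was 54024 FPKM. In replicates 1 and 4 of day 21 the sums were 89129 and 101941 FPKM, not below the uninjured range, whereas the means of 9.39 and 9.50 were below it, and Perm1 was 41.1 and 39.3 FPKM. These samples were chosen after their values were seen, and the part of fibre content in the Perm1 values was not tested.

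Ppargc1a encodes PGC-1alpha, the central coactivator. Its uninjured values were 4.45, 4.86, 6.22, 4.51 and 3.69 FPKM. At day 3 they were 1.90, 1.66, 1.01, 0.719 and 2.23 FPKM. At day 7 the lowest, median and highest were 0.518, 2.47 and 3.05 FPKM. No sample of day 3 or day 7 reached the uninjured range, and replicate 5 of day 7, the library least correlated with its group, was the lowest of all 27. At day 14 the range was 2.07 to 2.96 FPKM with a median of 2.45. At day 21 the values were 3.23, 2.54, 3.69, 2.81 and 2.95 FPKM, and 4 of the 5 were below all uninjured samples. Ppargc1a fell at day 3 (-1.22 ± 0.20, adjusted p = 4.54e-05), day 7 (-0.91 ± 0.19, adjusted p = 0.00158) and day 14 (-0.72 ± 0.19, adjusted p = 0.0117). The day 14 call was lost with the common sum (-0.32, adjusted p = 0.309), own read totals (-0.39, adjusted p = 0.152) and the fibre markers (-0.38, adjusted p = 0.199), and the day 7 call with the common sum (-0.39, adjusted p = 0.145) and the fibre markers (-0.48, adjusted p = 0.0502). The log2 difference at day 21 was -0.50 ± 0.20 (adjusted p = 0.168). Its mean rose from 31.7% of the uninjured mean at day 3 to 64.1% at day 21.

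Ppargc1b, the related coactivator PGC-1beta, was measured with 30 to 149 reads per sample. It was 0.516 to 0.813 FPKM at day 3 and 0.476 to 0.927 at day 7, against 0.611 to 2.11 in uninjured muscle, where replicate 4 was the lowest sample. These injured ranges therefore overlapped the uninjured one through that sample only. Ppargc1b fell at day 3 (-0.59 ± 0.18, adjusted p = 0.00882) and day 7 (-0.55 ± 0.17, adjusted p = 0.0167), and the day 7 call was lost without uninjured replicate 1 or 5 (highest adjusted p = 0.0552). With the common sum neither call held (-0.18 on each day, adjusted p = 0.464 and 0.412). At days 14 and 21 the log2 differences were -0.24 ± 0.17 and -0.15 ± 0.18 and did not pass (adjusted p = 0.325 and 0.684). With a pseudocount of 0.1 the day 3 value was -1.03. The highest value of all samples was 2.42 FPKM in replicate 5 of day 21.

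Esrra encodes ERRalpha, the ERR most closely tied to PGC-1alpha in oxidative metabolism. Its uninjured values were 100, 54.3, 59.6, 52.9 and 89.5 FPKM. At day 3 they were 41.6, 35.1, 28.5, 21.4 and 31.1 FPKM. At day 7 they ranged from 23.3 through a median of 33.8 to 55.0 FPKM. The day 3 samples were all below the uninjured ones, and 1 day 7 sample overlapped them. At day 14 the lowest, median and highest were 28.1, 34.3 and 47.7 FPKM. At day 21 the values were 48.8, 41.6, 56.9, 51.8 and 46.9 FPKM, of which 4 were below all uninjured samples. Esrra fell at day 3 (-1.13 ± 0.23, adjusted p = 3.02e-04), day 7 (-0.94 ± 0.22, adjusted p = 0.00287) and day 14 (-0.94 ± 0.22, adjusted p = 0.00443). With the common sum these values were -0.33, -0.22 and -0.47 and none passed (adjusted p = 0.221, 0.379 and 0.135). The difference at day 21 was -0.48 ± 0.23 (adjusted p = 0.234). Esrra shares 73 exonic bases with Trmt112 on the opposite strand, and libraries did not keep the strand, so a small part of its reads cannot be assigned with certainty.

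Esrrb, the ERR better known from stem cells and the retina, was at 0.4997 to 1.97 FPKM in uninjured muscle. Its range was 0.210 to 0.698 FPKM on day 3, 0.147 to 0.770 on day 7, 0.217 to 0.503 on day 14 and 0.267 to 1.32 on day 21. Of the injured samples, 4 of 5, 4 of 6, 5 of 6 and 3 of 5 lay below all uninjured ones at days 3, 7, 14 and 21. In deposited FPKM Esrrb fell, with log2 fold changes of -0.59 ± 0.17, -0.64 ± 0.17 and -0.72 ± 0.17 at days 3, 7 and 14 (adjusted p = 0.00750, 0.00558 and 0.00398), and differed by -0.44 ± 0.17 at day 21 (adjusted p = 0.154). These 3 calls were lost with the common sum, at -0.25, -0.39 and -0.50 (adjusted p = 0.244, 0.0631 and 0.0532). Reads for Esrrb were few, from 18 to 174 per sample, and with a pseudocount of 0.1 its day 3 value was -1.22.

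Esrrg encodes ERRgamma, which is enriched in oxidative fibres. It was 0.983 to 2.21 FPKM at day 3 and 0.675 to 2.23 at day 7, and all of these samples were below the uninjured range of 2.38 to 3.51. On day 14 it was 1.26 to 2.71 FPKM and on day 21 0.794 to 3.00, and on each of these days 1 sample overlapped uninjured muscle. Esrrg fell at day 3 (-0.57 ± 0.19, adjusted p = 0.0167) and day 7 (-0.69 ± 0.18, adjusted p = 0.00625), while scaling to the muscle fibre markers turned the day 3 value to 0.10. With the common sum the values were -0.02 and -0.23 and neither passed (adjusted p = 0.954 and 0.404). The day 3 call was lost without replicate 3 of day 3 (adjusted p = 0.0570). At days 14 and 21 the log2 differences were -0.32 ± 0.18 and -0.42 ± 0.19 (adjusted p = 0.208 and 0.217).

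Ppara and Ppard encode fatty acid-sensing nuclear receptors. Ppara, with 3 to 38 reads per sample, did not pass the filter and was tested with an exact two-sided permutation test. Its values were 0.391, 0.242, 0.222, 0.191 and 0.321 FPKM in uninjured muscle. At day 3 they were 0.125, 0.159, 0.109, 0.0572 and 0.0490 FPKM, all below uninjured muscle. The difference in mean log2(FPKM + 1) was -0.21 at day 3 (exact p = 0.00794, the smallest that 5 against 5 samples allow), and this p was not adjusted over genes. With a pseudocount of 0.1 in place of 1, which weighs low values more, the difference was -0.91 with the same p. At days 7, 14 and 21 the differences were -0.11, -0.08 and -0.07 (exact p = 0.182, 0.303 and 0.452), with 3 of 6, 3 of 6 and 2 of 5 samples below all uninjured ones and 0, 1 and 1 above them.

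Ppard was at 3.11 to 4.94 FPKM at day 3 and 3.29 to 5.11 in uninjured muscle. The groups overlapped on every day, with log2 differences of -0.06 ± 0.13, -0.04 ± 0.12, -0.02 ± 0.12 and 0.06 ± 0.13 at days 3, 7, 14 and 21, none of which passed (lowest adjusted p = 0.724). This member, with Nrf1, was the part of the set whose deposited FPKM moved least.

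Nrf1, the transcription factor of many respiratory chain genes, was 1.40 to 1.47 FPKM in the 5 samples of day 3 and 1.10 to 1.61 in uninjured muscle. The day 3 values lay inside the uninjured range and had a coefficient of variation of 2.24%, against 16.2% in uninjured muscle. The log2 differences were 0.11 ± 0.10, 0.01 ± 0.09, -0.06 ± 0.09 and -0.13 ± 0.10 at days 3, 7, 14 and 21 (lowest adjusted p = 0.367). At day 21, 4 of 5 samples were below all uninjured samples and replicate 5 was at 1.49 FPKM.

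Tfam lies furthest downstream of the members, since it acts on mitochondrial DNA itself. Its uninjured values were 10.2, 10.6, 10.2, 9.99 and 10.1 FPKM, a coefficient of variation of 2.08%. At day 3 they were 8.35, 6.83, 6.17, 4.86 and 6.36 FPKM. At day 7 they ranged from 5.39 through a median of 7.00 to 9.81 FPKM. Every sample of both days was below the uninjured range. At day 14 the range was 5.64 to 8.55 FPKM with a median of 6.80. At day 21 the values were 8.97, 6.33, 10.5, 10.3 and 4.86 FPKM, the widest spread of any group, with 2 samples in the uninjured range. Tfam fell at day 3 (-0.59 ± 0.17, adjusted p = 0.00590), a direction that turned when FPKM was rescaled to a common sum (0.14) or to the fibre markers (0.29). It fell at day 7 (-0.46 ± 0.16, adjusted p = 0.0346) and day 14 (-0.49 ± 0.16, adjusted p = 0.0338), with the day 7 direction also turned by both scalings (0.20 and 0.11) and by each sample's own read total (0.041). Without 1 library, the day 7 call was lost in 9 of 11 cases and the day 14 call in 8 of 11, with adjusted p-values up to 0.0729 and 0.0863. Neither call held with quantile normalization (-0.41 and -0.40, adjusted p = 0.0603 and 0.0901). The day 14 call was also lost with the common sum (-0.056, adjusted p = 0.888), own read totals (-0.13, adjusted p = 0.655) and the fibre markers (-0.12, adjusted p = 0.736). The day 21 difference was -0.33 ± 0.17 (adjusted p = 0.269).

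**Figure D2:**
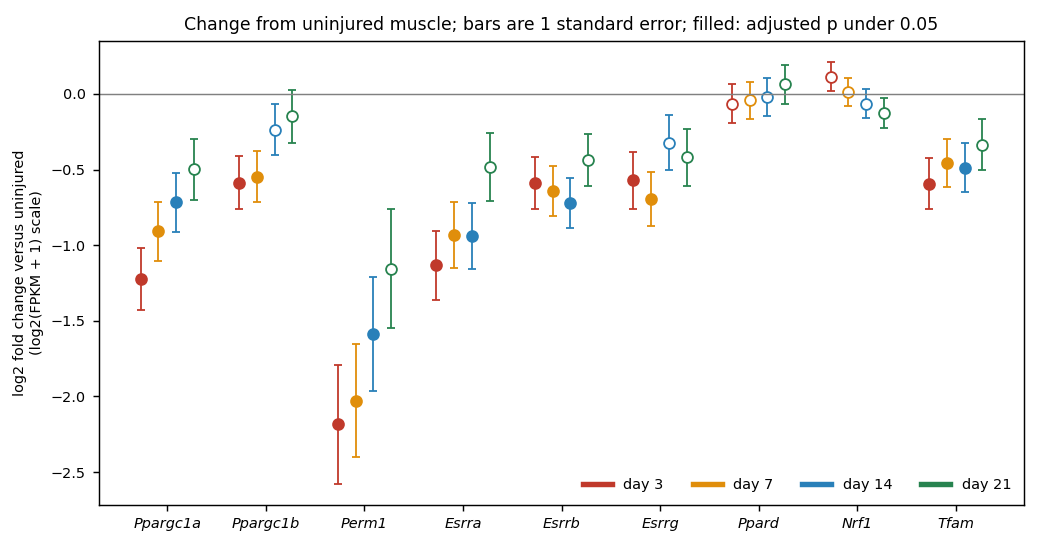
Log2 fold change of the 9 tested regulators versus uninjured muscle (vertical axis, log2(FPKM + 1) scale) at days 3, 7, 14 and 21. Points are limma estimates, bars are 1 SE and filled points have an adjusted p under 0.05. Perm1 was the lowest on each day, from -2.18 at day 3 to -1.15 at day 21, and Tfam and Esrrg turned above 0 at day 3 under scaling to the muscle fibre markers.

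Between day 3 and day 21, 2 members were called higher, when 25.5% of all tested genes were called and 9.23% of all tested genes were higher. Ppargc1a was higher at day 21 by 0.72 ± 0.20 (adjusted p = 0.0108), and all 5 day 21 samples (2.54 to 3.69 FPKM) were above the highest of day 3 (2.23). This call was lost with the common sum (0.33, adjusted p = 0.261), with each sample's own read total (0.43, adjusted p = 0.101) and with the fibre markers (0.26, adjusted p = 0.241), and in these fits Nrf1 was the member called, as lower at day 21. These fits called 5001 of 15116, 4592 of 14887 and 6059 of 14980 genes lower at day 21 than at day 3. Esrra was higher by 0.65 ± 0.23 (adjusted p = 0.0366), with its lowest day 21 sample at 41.56 FPKM and its highest day 3 sample at 41.60. The Esrra call was lost in 6 of 10 cases without 1 library (highest adjusted p = 0.130), and its direction turned to -0.071 under scaling to the fibre markers. Perm1 differed by 1.03 ± 0.39 and did not pass (adjusted p = 0.0549), and Ppargc1b and Nrf1 differed by 0.44 ± 0.18 and -0.24 ± 0.10 (adjusted p = 0.0673 and 0.0712). Between successive days limma called 0 members. The share of all genes called was 0.0478% for day 7 versus day 3, 0.335% for day 14 versus day 7 and 0.0% for day 21 versus day 14. Members with an unadjusted limma p under 0.05 were 0, 1 (Esrrg, 0.37 ± 0.17) and 1 (Esrra, 0.45 ± 0.22) in these, against 15.7%, 12.4% and 6.21% of all genes. Without replicate 5 of day 7, Ppargc1a was called higher at day 7 than at day 3, by 0.51 (adjusted p = 0.0266).

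The scaling between samples set how many members were called. The deposited scaling left the median log2 fold change of all tested genes near 0 at day 3. Rescaling FPKM to a common sum moved this median to 0.50, each sample's own read total to 0.40, the muscle fibre markers to 0.62, and quantile normalization to -0.12. Perm1 and Ppargc1a were called lower at day 3 under each of them. Perm1 was at -1.39 ± 0.35 with the common sum (adjusted p = 0.00203) and -1.23 ± 0.27 with the fibre markers (adjusted p = 6.40e-04). Ppargc1a was at -0.66 ± 0.23 (adjusted p = 0.0206) and -0.55 ± 0.19 (adjusted p = 0.0143) in the same fits. Esrra was called lower with the own read total (-0.48 ± 0.18, adjusted p = 0.0324) but not with the common sum (-0.33 ± 0.22, adjusted p = 0.221). Nrf1 and Ppard, uncalled in deposited FPKM, were called higher with the common sum, by 0.59 ± 0.15 (adjusted p = 0.00190) and 0.60 ± 0.22 (adjusted p = 0.0256). In that fit 7087 of 15116 tested genes were called higher and 322 lower. Relative to the shifted median of all genes, the common-sum values were -1.89 for Perm1, -1.16 for Ppargc1a, -0.82 for Esrra, -0.75 for Esrrb, -0.67 for Ppargc1b, -0.52 for Esrrg, -0.36 for Tfam, 0.11 for Ppard and 0.10 for Nrf1. Perm1, Ppargc1a and Esrra were in this order furthest below the median gene both with the common sum and in deposited FPKM. Both fits use the log2(FPKM + 1) scale, which understates low genes. In mean deposited FPKM at day 3, Esrrb, Ppara and Ppargc1b were at 36.2%, 36.5% and 42.6% of uninjured muscle, below Esrra at 44.2%. On days 7 and 14 with the common sum, Perm1 was the member called lower, with 2 members called higher on day 7 (Ppard and Nrf1) and 0 on day 14. Of all 15116 genes tested there, 208 were lower and 6457 higher on day 7, and 106 and 1646 on day 14.

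**Figure D3:**
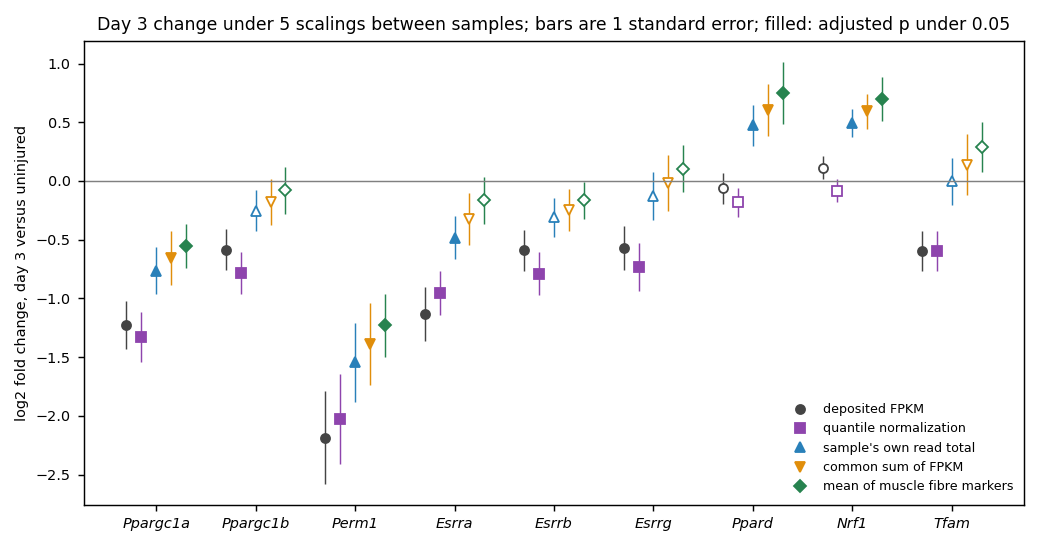
Log2 fold change of the 9 tested regulators at day 3 versus uninjured muscle under 5 scalings between samples (vertical axis, marker shapes). Bars are 1 SE and filled markers have an adjusted p under 0.05. Perm1 and Ppargc1a were filled and below 0 under each scaling, Tfam lay above 0 with the common sum (0.14) and the fibre markers (0.29), and Nrf1 was at -0.08 with quantile normalization.

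Genes around the regulators were counted in 4 lists. For comparison, 2899, 2107, 1649 and 247 of all 14630 tested genes were lower in deposited FPKM at days 3, 7, 14 and 21. Those higher were 3417, 2189, 1320 and 255. The machinery that copies and transcribes mitochondrial DNA had 8 of 13 genes lower at day 3, then 6, 6 and 0 at days 7, 14 and 21, and 0 higher. At day 3 its median log2 fold change was -0.40, which turned to 0.17 with 0 lower and 2 higher when FPKM was rescaled to a common sum. The medians of days 7 and 14 turned likewise, from -0.20 to 0.33 and from -0.21 to 0.14, with 0 lower on either day. Under the common sum the medians of all tested genes were 0.50, 0.47 and 0.28 at days 3, 7 and 14, above those of this list. Of 15116 genes tested there, 322 were lower and 7087 higher at day 3, and 208 and 6457 at day 7. At day 14 these counts were 106 and 1646, and at day 21 they were 5 and 40. Tfb2m, the partner of Tfam at mitochondrial promoters, went from 13.2 ± 1.87 to 6.37 ± 0.826 FPKM at day 3 (log2 change -0.94 ± 0.16, adjusted p = 7.18e-05). Tefm, the mitochondrial transcription elongation factor, went from 14.3 ± 2.16 to 8.04 ± 1.58 FPKM (-0.77 ± 0.19, adjusted p = 0.00252).

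Partners and upstream regulators of PGC-1 had 17 of 30 genes lower and 1 higher at day 3, 11 and 2 at day 7, 10 and 1 at day 14, and 2 and 0 at day 21. The median at day 3 was -0.45 and turned to 0.29, with 2 lower and 7 higher, under the common sum, where days 7, 14 and 21 had 2, 2 and 0 lower and 8, 2 and 0 higher. Camk2a, a calcium/calmodulin-dependent kinase, went from 46.9 ± 8.53 to 15.4 ± 3.61 FPKM (-1.56 ± 0.33, adjusted p = 5.00e-04) and Ppp3cb, a catalytic subunit of calcineurin, from 31.8 ± 4.45 to 10.4 ± 2.17 FPKM (-1.54 ± 0.25, adjusted p = 3.13e-05). Pprc1, the third member of the PGC-1 family, was the gene called higher, from 1.69 ± 0.187 to 2.35 ± 0.331 FPKM (0.31 ± 0.11, adjusted p = 0.0296). At day 21 Lpin1, a phosphatidate phosphatase that also coactivates Ppara, was at 11.2 ± 1.88 FPKM against 26.2 ± 2.84 (-1.16 ± 0.21, adjusted p = 0.00379).

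Targets of the ERRs and PGC-1 in oxidative metabolism had 21 of 23 tested genes lower at day 3, then 20, 11 and 2, with 0 higher. The median at day 3 was -1.25, and -0.43 with 7 lower and 1 higher under the common sum, which left 3, 1 and 0 of 24 lower on days 7, 14 and 21. Cox7a1, the muscle form of a cytochrome oxidase subunit, went from 1830 ± 569 to 561 ± 279 FPKM (-1.82 ± 0.41, adjusted p = 8.60e-04), and Vegfa, an angiogenic factor, from 51.8 ± 8.05 to 16.4 ± 11.2 FPKM (-1.80 ± 0.40, adjusted p = 7.73e-04). Pdk4, the kinase that shuts off pyruvate dehydrogenase, was lower at day 21, at 35.5 ± 9.29 against 70.0 ± 12.3 FPKM (-0.98 ± 0.27, adjusted p = 0.0450), but not at day 14 (-0.59 ± 0.26, adjusted p = 0.107). At day 21 no gene of this list was called with quantile normalization, the common sum, own read totals or the fibre markers.

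PPAR targets of fatty acid use had 12 of 15 tested genes lower and 3 higher at day 3, 11 and 1 at day 7, 9 and 1 at day 14, and 6 and 0 at day 21. Under the common sum the counts at day 3 were 5 lower and 3 higher of 17, with 5, 2 and 0 lower on days 7, 14 and 21. The 6 genes lower at day 21 became 1 with quantile normalization and 0 with own read totals or the fibre markers. Fabp3, the fatty acid-binding protein of muscle, went from 969 ± 332 to 262 ± 99.2 FPKM at day 3 (-1.92 ± 0.33, adjusted p = 6.43e-05). Plin5, a lipid droplet protein at mitochondria, went from 11.1 ± 4.57 to 2.33 ± 0.987 FPKM at day 3 (-1.83 ± 0.28, adjusted p = 1.75e-05) and was at 4.07 ± 1.55 at day 21 (-1.25 ± 0.28, adjusted p = 0.0146). The highest increases were in Ucp2, a mitochondrial carrier that leukocytes also express, from 2.40 ± 0.299 to 32.1 ± 14.5 FPKM (3.15 ± 0.40, adjusted p = 2.59e-06), and in Angptl4, a secreted inhibitor of lipoprotein lipase, from 0.837 ± 0.407 to 6.78 ± 3.78 FPKM (1.93 ± 0.38, adjusted p = 2.58e-04). The part of the macrophage and leukocyte markers, which were higher on the same day, was not tested. The last 2 lists share Acadm, Cpt1b and Pdk4, so their counts are not independent.

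**Figure D4:**
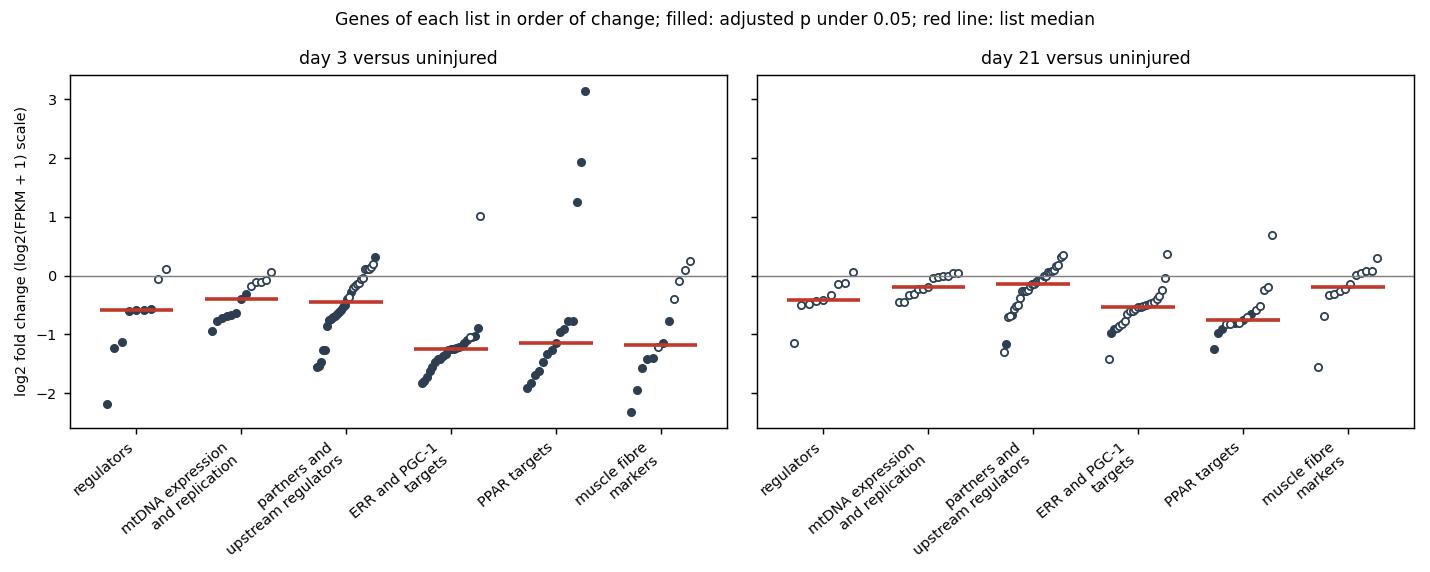
Log2 fold change (vertical axis, log2(FPKM + 1) scale) of each tested gene in the regulators, 4 lists of related genes and the muscle fibre markers, at day 3 (left) and day 21 (right) versus uninjured muscle. Points are genes in order of their change, filled where the adjusted p is under 0.05, and red lines are list medians, which went from -1.25 to -0.54 for ERR and PGC-1 targets. With FPKM rescaled to a common sum the day 3 medians of the first 2 lists of related genes turned to 0.17 and 0.29. The median of all tested genes was 0.50 in that fit.

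The genes most like each member over the 27 samples are given as a description, with no test, since all points share the same injury and the same libraries. Perm1 was most like Atp5a1, a subunit of ATP synthase (Pearson r = 0.973), Mfn1, a mitofusin (0.971), and Coq10a (0.971), with r of 0.944, 0.931 and 0.942 after group means were removed. Esrra was most like Tmem143 (0.953), Vegfb (0.951) and Aes (0.944). Ppargc1a was most like Klhl24 (0.932), Ndufs1, a subunit of complex I (0.930), and Foxn3 (0.927), and Tfam was most like Dnaja3 (0.924), Mrpl50 (0.923) and Sucla2 (0.913). Esrrg was most like Hccs (0.878), Mcur1 (0.875) and Hadhb (0.875). The other members had lower values, with 0.830 for Esrrb and Ung, 0.794 for Nrf1 and Tmem184b, 0.773 for Ppargc1b and Dnmt3a, and 0.666 for Ppard and Cxxc1. Next in order for these members were Synpo and 0610040J01Rik for Esrrb, Trim5 and Wwc2 for Nrf1, Sugp2 and Rnf212b for Ppargc1b, and Tepsin and Gm2897 for Ppard.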

How the data were processed

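Per the labels, RNA was selected by poly-T beads and sequenced from non-directional libraries, and the submitters' processing notes name HISAT2 2.0.5 and featureCounts 1.5.0-p3. The genome build is not given in the sources used here, but the table's coordinates are those of GRCm38 for 53499 of 54409 genes found in GENCODE M21, all members included. The authors deposited FPKM, from which whole reads were recovered for 100% of values (within 0.02 of a read). Values entered limma (version 3.58.1, R 4.3.3) as log2(FPKM + 1) for the 14630 genes reaching 0.5 FPKM in 5 or more samples, in a single fit of group means over all 27 samples with a variance trend. Tests were two-sided, with Benjamini-Hochberg adjustment over all tested genes within each comparison, at 0.05. Alternatives changed the pseudocount, filter, scaling, variance model, block and samples.

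The members and lists were chosen with earlier results of these data known. Other genes named are the 2 called genes with the largest change in each direction at day 3, and 1 at day 21, in each list, the 3 genes with the highest Pearson correlation with each member, and the most abundant marker of each marker list. Genes named as overlapping or shared between lists are outside this rule. Each sample's own reads limit its precision, and members with few reads have their reads given. The permutation test used scipy 1.17.1 in Python 3.11.15, and figures matplotlib 3.10.9.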

Additional observations from a re-analysis of the deposited data

Results flagged for a closer look

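In 50 groups of member values, 1 sample stood far from the others in 3, where chance gives about 1 in 20. Ppargc1b was 2.42 FPKM in replicate 5 of day 21 and 0.851 to 1.21 in the other 4 samples. Ppard was 6.23 FPKM in the same library and 3.82 to 4.39 in the others, and this library had the lowest mean correlation with its group. Nrf1 was 1.61 FPKM in uninjured replicate 3 and 1.10 to 1.24 in the others. The difference from uninjured muscle changed between day 3 and day 21 for Ppargc1a, by 0.72, and for Esrra, by 0.65, on the log2 scale.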

How the results depend on the processing

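The counts of members called kept within 1.5 times under the pseudocounts, the minimum of 1 FPKM, limma without the trend and voom weights in all 8 comparisons. Median-ratio scaling gave the same counts as the deposited FPKM over all genes in each comparison, so its agreement is no separate check. With FPKM rescaled to a common sum they were 4, 3 and 1 at days 3, 7 and 14 versus uninjured muscle and 1, lower, at day 21 versus day 3. With each sample's own read total they were 5, 4 and 3 at days 3, 7 and 14. These were 3 lower and 2 higher on day 3, 3 and 1 on day 7, and 3 and 0 on day 14. Of 14887 genes, 617, 424 and 285 were lower and 6682, 5443 and 2265 higher on these days. At day 21 versus day 3, 1 member was called in that fit, lower. With scaling to the muscle fibre markers, chosen after seeing the data, 4, 1 and 1 members were called at days 3, 7 and 14. These were 2 lower and 2 higher on day 3, and 1 lower on each of days 7 and 14. Of 14980 genes, 219, 265 and 129 were lower and 8425, 3415 and 502 higher on these days. At day 21 versus day 3, 1 member was called, lower. In these fits, in order, 5001 of 15116, 4592 of 14887 and 6059 of 14980 genes were lower in that last comparison. For day 21 versus day 3 the count of members was 1 without the filter and 4 with quantile normalization, all higher. Without the filter 2413 of 31179 genes were lower and 928 higher. With quantile normalization 2105 of 14630 genes were lower and 2108 higher, against 2377 and 1351 in deposited FPKM. With only the 2 groups compared the count of members was 2 at day 21 versus uninjured muscle (Perm1 and Ppargc1a). In that fit 720 of 14630 genes were lower and 757 higher, against 247 and 255 in the fit of all 27 samples. Leaving out the least correlated library of each injured group, also chosen after seeing the data, gave 1 member at day 7 versus day 3 (Ppargc1a). In that fit 1873 of 14630 genes were lower and 676 higher, against 7 and 0 with all 27 samples.

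With the replicate block, 1 member was called at day 21 versus uninjured muscle (Perm1, adjusted p = 0.0448) and 5 at day 21 versus day 3, 4 of them higher. With the replicate letter as the block these counts were 1 and 1. At day 21 versus uninjured muscle the replicate block called 405 genes lower and 390 higher, and the letter block 675 and 558, of 14630. At day 21 versus day 3 the replicate block called 2483 genes lower and 1586 higher, and the letter block 2006 and 919. The correlation of deviations exceeded 0.1 in 15 of 51 same-numbered pairs (median -0.003) and in 55 of 240 differently numbered pairs (median 0.003). Pairing by replicate number was not seen, but this check cannot show whether samples share an animal.

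Without 1 library the counts versus uninjured muscle ranged from 6 to 7 on day 3, from 5 to 7 on day 7, from 4 to 5 on day 14 and from 0 to 0 on day 21. They ranged from 0 to 1 for day 7 versus day 3 and from 1 to 3 for day 21 versus day 3. Directions turned with the common sum for Ppard (0.60 at day 3, 0.55 at day 7) and Tfam (0.14 and 0.20), with own reads for Ppard at day 3 (0.47) and Tfam at day 7 (0.041), with fibre markers for Ppard (0.75), Tfam (0.29) and Esrrg (0.10) at day 3, Tfam at day 7 (0.11) and Esrra at day 21 versus day 3 (-0.071). Another 52 of 1072 values changed sign without a call in either fit. Relative to the all-gene median at day 3, Tfam was at -0.61 in deposited FPKM, -0.36 with the common sum and -0.33 with fibre markers. Esrrg was at -0.58 in deposited FPKM and -0.51 with fibre markers, whereas Ppard went from -0.08 to 0.11 with the common sum. The cause of the turned directions was not tested. Ppara, Esrrb and Ppargc1b had the fewest reads, at most 38, 174 and 149 per sample.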
